A study of Mus musculus with 6 samples.

Results

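The genes described here encode the proteins of the cytosolic ribosome. They are the protein-coding rows of the count table whose names follow the Rpl and Rps nomenclature for large-subunit and small-subunit proteins, together with Rpsa, Rplp0, Rplp1 and Rplp2, and without the S6 kinase genes, rows named as pseudogenes and Rps19bp1. This rule gave 85 of 54532 genes and used no expression value. By role they are 43 large-subunit proteins, 31 small-subunit proteins, 3 proteins of the P stalk and 8 paralogues. They lie on 19 chromosomes, with at most 14 of them on any one, and 83 of the 85 positions in the table equal those of the mouse build GRCm38.

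RNA-sequencing was performed on kidneys of 3 WT mice and 3 Trpm2-/- mice, labelled KO, all of the C57BL/6J strain and aged 6 to 8 weeks by the labels, while the methods give an older range for this model. Every mouse, WT mice included, had received 18 mg/kg cisplatin 72 h earlier, and no untreated kidney entered the comparison. The methods describe male mice whose remaining TRPM2 protein lacks part of the membrane-spanning region and forms no working channel. The WT samples carry the replicate numbers 1, 2 and 3 and the Trpm2-/- samples 1, 2 and 4, and p-values measure only the spread between these samples.

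A ribosome joins a small subunit, which reads the messenger RNA, to a large subunit, which forms the peptide bond, and its proteins are needed in about equal numbers. Messages of these genes typically begin with a C followed by a run of pyrimidines, the terminal oligopyrimidine (TOP) motif. mTOR signaling controls their translation through LARP1, and S6 kinase phosphorylates the small-subunit protein S6. When ribosome assembly is disturbed, free RPL5 and RPL11 bind MDM2 and thereby stabilize p53. In the proximal tubule, which takes up cisplatin, this machinery serves cells of high protein turnover.

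The start sites of these genes were read from RefSeq (GRCm38.p6) as windows of 15 bases on each side of the annotated start, which matched 65 of the 85 genes at 77 starts. The first 5 windows shown hold a C followed by at least 7 C or T, in capitals, and belong to genes on which the results below turn. The next 4 hold no such run in the window. Rpl7l1 is shown for the smallest p and Rpl11 for its bearing on p53. Rplp0 is among the most abundant messages and Rps27rt had the highest log2 fold change. Starts in use in these kidneys were not measured, so a window without a run does not show that the message lacks the motif.
Rps27 (chr3:90213634-90213663, minus strand): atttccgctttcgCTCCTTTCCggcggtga
Rpl38 (chr11:114668565-114668594, plus strand): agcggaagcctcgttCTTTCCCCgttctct
Rps6 (chr4:86857353-86857382, minus strand): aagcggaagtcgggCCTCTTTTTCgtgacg
Rps10 (chr17:27635230-27635259, minus strand): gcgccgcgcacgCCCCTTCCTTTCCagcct
Rpl13a (chr7:45128731-45128760, minus strand): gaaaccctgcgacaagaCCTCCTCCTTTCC
Rpl7l1 (chr17:46782642-46782671, minus strand): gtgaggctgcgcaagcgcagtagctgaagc
Rpl11 (chr4:136053379-136053408, minus strand): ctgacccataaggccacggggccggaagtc
Rplp0 (chr5:115559452-115559481, plus strand): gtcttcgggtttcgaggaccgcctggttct
Rps27rt (chr9:114982725-114982754, minus strand): agaacttatcccttgctttccggcggtgac

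Such a run stood in 27 of the 77 windows (35.1%), against 9.26% of 32851 windows of all genes read the same way on the strand of the gene. Over the promoter sequence from 250 bases before to 50 bases after the start, searched on both strands, CCGGAAG, the core of ETS-family sites, was found at 35.1% of these starts and 8.86% of all starts. GGGCGG, the core of SP1 sites, was found at 59.7% and 35.7%, and AANATGGC, the core of YY1 sites, at 22.1% and 6.05%. TATAAA was found at 9.09% of these starts and 13.6% of all starts. A match of letters is a description of the sequence and not a binding site. Among the 63 genes with a window and a test, the 26 with a pyrimidine run had a median log2 fold change of -0.13 between genotypes. The 37 without a run had -0.16. These classes rest on the annotated start and do not separate messages with the TOP motif from those without it. Whether that motif bears on the difference was not tested.

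Messages for ribosomal proteins were abundant in all 6 kidneys. Total counts on genes ranged from 14053307 to 17150089 per library, and these 85 genes took 3.72%, 4.35% and 4.30% of them in WT replicates 1, 2 and 3. In Trpm2-/- replicates 1, 2 and 4 they took 3.41%, 5.01% and 3.71%. The Trpm2-/- values thus enclosed the WT values, with replicate 2 above every other mouse and replicate 1 below. WT replicate 1 and Trpm2-/- replicate 2 stood apart from the other mice of their genotype in these genes, and the counts of calls and the medians are given with and without them. The means were 4.13% ± 0.348 and 4.04% ± 0.850 (SD, n = 3), a difference of -0.0833 percentage points that is smaller than the spread within either genotype. It was -0.284 percentage points without WT replicate 1 and -0.566 without Trpm2-/- replicate 2, and it was above 0, from 0.00297 to 0.233, without any one of the other mice. When genes of the mitochondrial genome were left out of the total, the difference was 0.115 percentage points. Those genes took 4.43% to 4.72% of counts in WT kidneys and 7.91% to 11.0% in Trpm2-/- kidneys.

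Other facts of the libraries bear on how these values are read. Trpm2 had 0.308, 0.321 and 1.66 CPM (counts scaled to library size with TMM factors) in WT kidneys and 0.612, 1.09 and 1.25 CPM in Trpm2-/- kidneys, where 3 counts are worth 0.175 to 0.213 CPM, and a count over the whole gene does not check the genotype labels. All 12 proximal tubule markers in the list used here were detected and their summed level was 39700 to 52600 CPM in WT and 28700 to 32400 CPM in Trpm2-/- kidneys. Markers of the injured tubule summed to 17500 to 19400 CPM and 19400 to 27500 CPM. Those of the thick ascending limb and distal tubule summed to 801 to 2170 CPM in WT and 260 to 913 CPM in Trpm2-/- kidneys. Collecting duct markers summed to 1290 to 1600 CPM and 778 to 909 CPM. Markers of T and NK cells summed to at most 3.07 CPM, those of B cells to at most 2.65 CPM and those of red cell precursors to at most 0.551 CPM. Macrophage markers summed to 78.5 to 142 CPM over all mice. Podocyte markers summed to 510 CPM in Trpm2-/- replicate 4 and to 130 to 173 CPM in the other mice. In the same mouse endothelial markers summed to 197 CPM, against 53.2 to 118 CPM. Its fibroblast and pericyte markers summed to 148 CPM, against 43.6 to 86.6 CPM. Urothelial markers summed to 49.2 CPM in WT replicate 1 and to 6.37 to 12.0 CPM in the other mice. In bulk tissue, fewer cells of a type and less RNA per cell cannot be told apart. The part of cell composition in the ribosomal protein values was not tested.

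Levels between genes can be compared only per length. The table's gene length joins the exons of all transcripts and had a median of 1734 bases over these genes, 1.92 times the length of the main coding transcript at the median gene. Levels are therefore given per kilobase of that transcript, on the CPM scale, as the mean of the 6 kidneys. The transcripts present in these kidneys were not measured, so the ranks depend on the annotated length. The 77 core proteins, those without the paralogues, had a median of 532 CPM per kb with quartiles of 376 and 764. On the authors' FPKM scale, 67 of the 77 were above 100 FPKM and their median was 218 FPKM, against 0.516 FPKM for all genes with a count.

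**Figure D1:**
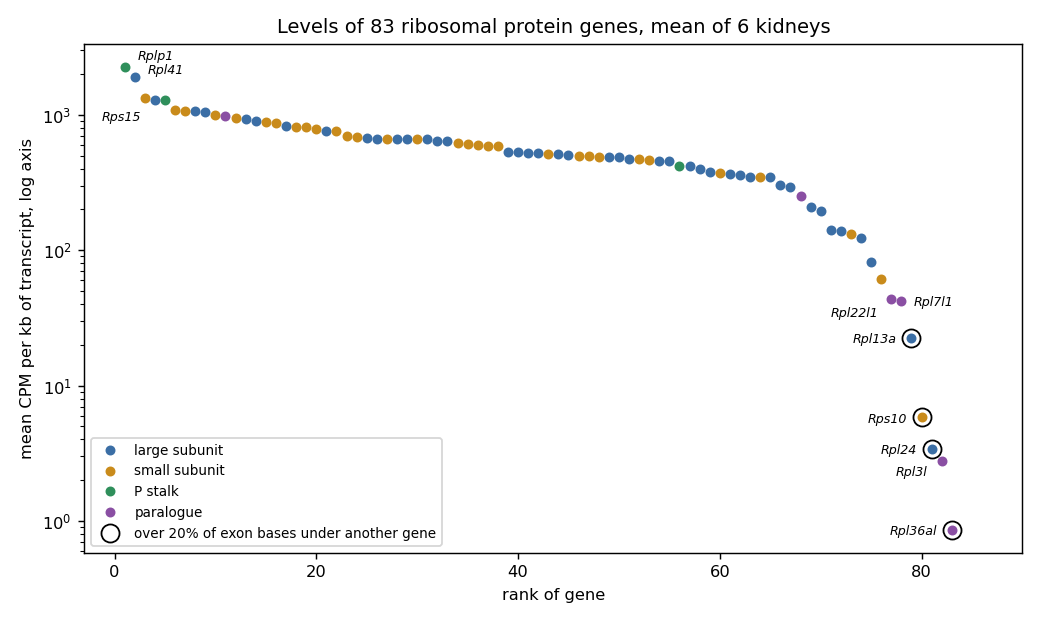
Mean level of each ribosomal protein gene over the 6 kidneys, in CPM per kb of the main coding transcript on a log axis, against its rank. Colours give the role, and open rings mark the 4 genes with over 20% of their exon bases under another gene on the same strand, all of which lie at the low end.

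Rplp1, which encodes a protein of the P stalk that recruits elongation factors, had the highest level at 2250 CPM per kb, and Rpl41, which encodes the smallest protein of the ribosome, followed at 1890. Rps15, which lies near the decoding site of the small subunit, had 1330, and Rplp0, the base of the P stalk, had 1290. Rplp2, the partner of Rplp1 in the stalk, stood lower, at rank 56, with a main transcript of 964 bases in the annotation. At the other end, 3 core genes had under 10 FPKM. Rpl13a (chr7:45125558-45128761) had 22.5 CPM per kb, Rps10 (chr17:27630418-27636669) 5.84 and Rpl24 (chr16:55966275-55971435) 3.41, although all 3 encode standard proteins of the ribosome.

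The annotation places other genes over the exons of these 3. In the GENCODE mouse annotation, release 21, 35.4% of the exon bases of Rpl13a lie under other genes on the same strand, chiefly Gm45713, as do 47.0% of those of Rpl24 (Gm28037) and 20.6% of those of Rps10 (RPS10-NUDT3). These overlapping genes were listed with 0 counts in every library. The paralogue Rpl36al, with 24.5% under Gm49383, had 105 counts over the 6 libraries. These 4 are the only genes of the 85 with over 20% of exon bases covered in this way. Rps10 had 493 counts in all, while the pseudogene row Rps10-ps2 had 12509. How reads in such overlaps were counted is not given in the sources used here, the part of the overlaps in the low counts was not tested, and the levels of these 4 genes are uncertain.

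Copies elsewhere in the genome also matter for the other members. At least one 75-base window of 82 of the 85 genes was also found in transcripts of another gene, with a median share of 16.7% of a gene's windows. Windows were pooled over all annotated transcripts of a gene, so the share of the main transcript can be higher. Rps27, for example, shared 271 of its 1207 windows (22.5%) with Rps27rt, while its main transcript has only 345 bases. Rows annotated as pseudogenes that share such windows numbered 654, of which 467 had counts. For 3 members, Rpl17, Rps10 and Rpl24, these rows held more counts than the gene itself. For Rpl21 they held 13580 counts beside 14450 on the gene. The levels of Rpl17 and Rpl21 are therefore uncertain as well. Summed over the series the pseudogene rows stayed a small part, with 0.254% to 0.334% of all counts per library.

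The first question was whether any ribosomal protein gene differed between genotypes under cisplatin. Of the 85 genes, 83 were tested, and edgeR's quasi-likelihood test called 0 of them higher and 0 lower in Trpm2-/- kidneys at an adjusted p under 0.05 (Benjamini-Hochberg over 15816 genes). Over all genes tested, 12.0% passed this threshold, 4.74% higher and 7.28% lower. An unadjusted p under 0.05 was reached by 2 of the 83 (Rpl7l1 and Rps27), against 28.3% of all genes. DESeq2 called these 2 lower, beside 9.13% of all genes lower with that tool, and limma-voom and limma on log2(FPKM + 1) called 0. With no filter on low counts, edgeR called 1 member higher, Rps27rt, beside 4.37% of all genes. At the threshold of the methods, an absolute log2 fold change above 1 with a p under 0.05, edgeR called 0 of 83 members, against 7.60% of all genes.

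The intervals of most members lay within a 2-fold change in either direction. The 95% interval of the log2 fold change lay within -1 and 1 for 75 of 83 members, against 59.4% of all genes. It lay within -0.5 and 0.5 for 17 of 83 members, against 2791 of 15816 genes. The median standard error was 0.188 for members and 0.203 for all genes. A change of more than 2-fold was therefore outside the interval for most of these genes. The intervals that reached past -1 or 1 belonged to Rps27rt, Rpl36al, Rpl21, Rps29, Rpl3l, Rpl17, Rpl38 and Rpl24.

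**Figure D2:**
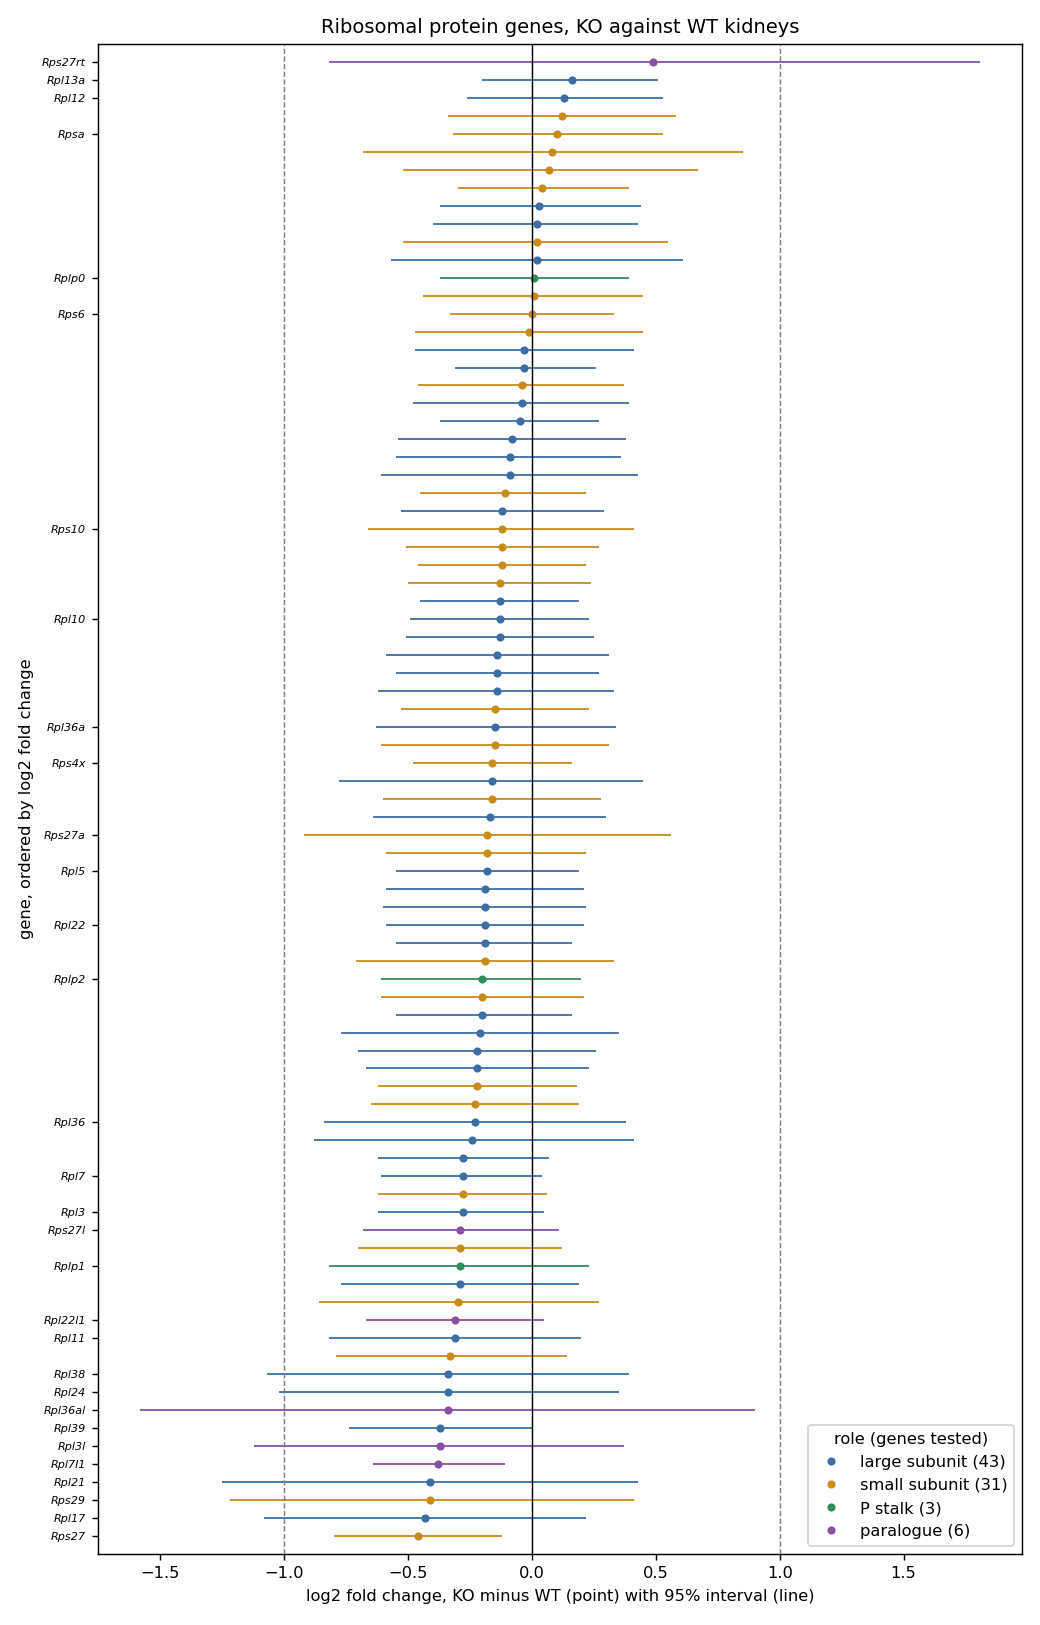
Log2 fold change of the 83 tested genes (x axis, Trpm2-/- minus WT, points) with 95% intervals (lines), ordered by value and coloured by role, with names for genes given in the text; dashed lines mark -1 and 1. Most points lie left of 0, from -0.46 for Rps27 to 0.49 for Rps27rt, and the intervals of Rps27 and Rpl7l1 lie wholly below 0.

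Although no member passed the test, 69 of the 83 had a log2 fold change below 0, against 48.4% of all genes tested. Their median was -0.16, beside 0.02 for all genes. The large subunit had a median of -0.17 with 38 of 43 below 0, the small subunit -0.15 with 24 of 31, the P stalk -0.20 with 2 of 3 and the tested paralogues -0.33 with 5 of 6. The genes of a list share the same 6 kidneys, so these counts are no replicates of the difference. The median was -0.34 without Trpm2-/- replicate 2 and -0.28 without WT replicate 1, and between -0.14 and -0.07 without any one of the other mice. With a correction for gene length it was -0.03, with 48 of 83 below 0. With library totals alone, the median of all genes moved to 0.12 and that of these genes to -0.05, a difference of -0.17 in place of -0.18.

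All 3 Trpm2-/- kidneys were below all 3 WT kidneys for 7 of the 83 members, against 16.8% of all genes, and all 3 were above for 0, against 16.7%. The 7 were Rpl3, Rpl7, Rpl7l1, Rpl22l1, Rpl24, Rps3a1 and Rps27.

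Rpl7l1 (chr17:46773907-46782672) encodes a protein similar to RPL7 that is found in precursors of the large subunit. It had 120, 124 and 127 CPM in WT kidneys and 91.7, 92.2 and 103 CPM in Trpm2-/- kidneys. Each Trpm2-/- mouse was below each WT mouse, and the spread within a genotype was small. This gave a log2 fold change of -0.38 (adjusted p = 0.0701 by edgeR's quasi-likelihood test, standard error 0.118), and over the alternatives the adjusted p of these tests ranged from 0.0441, with DESeq2, to 0.257.

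Rps27 (chr3:90212522-90213651) encodes a zinc-finger protein of the small subunit. Its values were 269, 296 and 371 CPM in WT kidneys and 223, 234 and 222 CPM in Trpm2-/- kidneys, again with no overlap. The log2 fold change of -0.46 had a standard error of 0.151 (adjusted p = 0.0768 by edgeR, 0.0316 by DESeq2). Over the alternatives the adjusted p of these tests ranged from 0.0316 to 0.409. The value was -0.25 with the correction for gene length and -0.32 without WT replicate 3. Rps27rt (chr9:114982366-114982739), a copy that the table lists as protein-coding, shares 90.3% of its 75-base windows with Rps27, so the counts of both are uncertain. It had 27.4, 117 and 88.4 CPM in WT kidneys and 34.5, 189 and 104 CPM in Trpm2-/- kidneys, with each genotype spanning a wide range. Its log2 fold change of 0.49 was the highest of all members, with an interval from -0.82 to 1.81, and was -0.16 without Trpm2-/- replicate 2. Summed, Rps27 and Rps27rt had 296, 413 and 459 CPM in WT kidneys and 257, 423 and 326 CPM in Trpm2-/- kidneys, so that the genotypes overlapped.

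**Figure D3:**
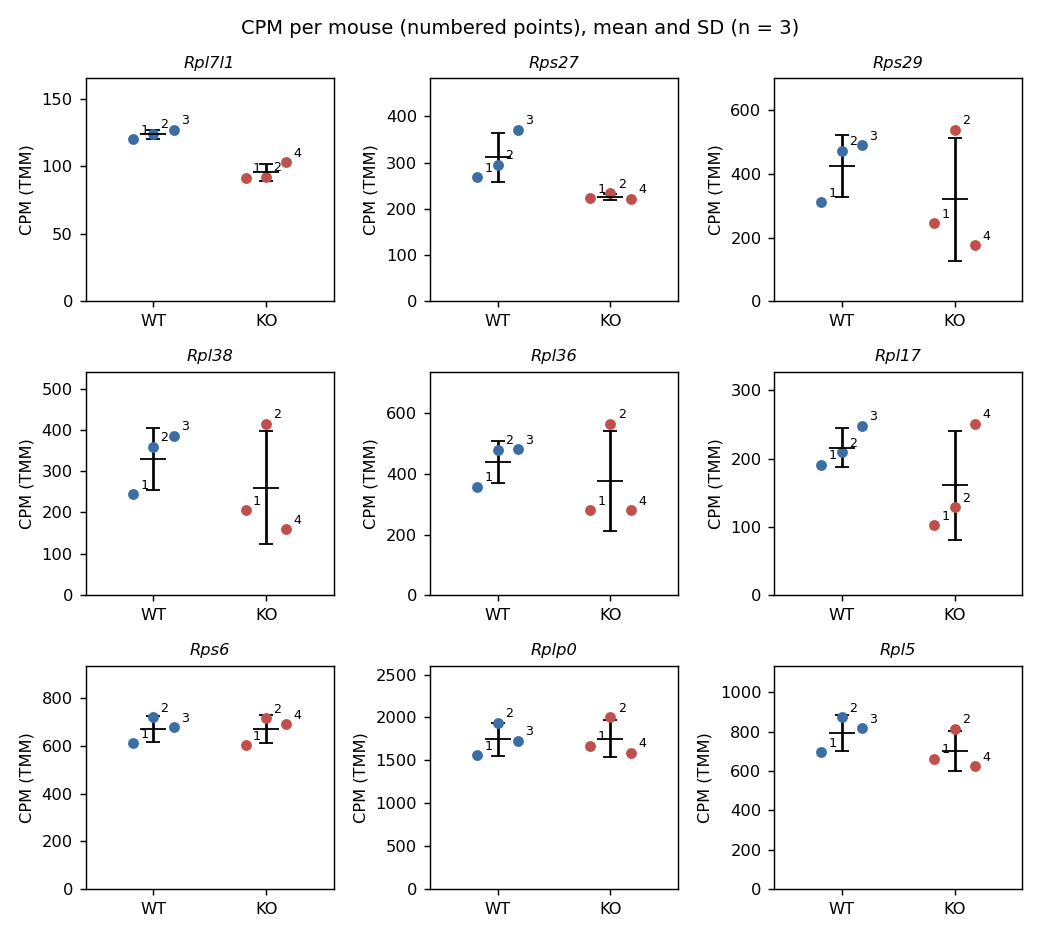
CPM (TMM-scaled) of 9 ribosomal protein genes in each mouse, as points numbered by replicate, with the mean and SD of each genotype (n = 3); every axis starts at 0. Rpl7l1 and Rps27 do not overlap between genotypes, Rps29, Rpl38 and Rpl36 are highest in Trpm2-/- replicate 2, Rpl17 is highest in Trpm2-/- replicate 4, and Rps6, Rplp0 and Rpl5 overlap.

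Several large-subunit and small-subunit genes had low fold changes but wide spread. Rps29, a short zinc-finger protein of the small subunit, had 311, 472 and 490 CPM in WT kidneys and 245, 538 and 176 CPM in Trpm2-/- kidneys. Trpm2-/- replicate 2 was the highest of all mice, and the other Trpm2-/- mice were below every WT mouse. The log2 fold change was -0.41 (interval -1.22 to 0.41). Without that mouse it was -1.01 with an adjusted p of 0.0322 in edgeR's test. Leaving out the highest Trpm2-/- mouse lowers the fold change and narrows the spread, so such a p is no separate test of the genotype. The same limit holds for the genes below. Rpl38, a large-subunit protein known for its part in translating Hox messages, followed the same order as Rps29, with 244, 359 and 386 CPM against 206, 415 and 159 CPM. Without Trpm2-/- replicate 2 edgeR called 4 of the 83 members lower, which were Rps29, Rpl38 (-0.86), Rpl36 (-0.65) and Rpl35a (-0.60), beside 7.62% of all genes called lower, and Rps29 alone passed the threshold of the methods, beside 8.75% of all genes. By the same test, an unadjusted p under 0.05 was then reached by 27 of 83 members, beside 29.9% of all genes. Without WT replicate 1 it called 0 of 83 members, beside 9.23% of all genes, and 7 had an unadjusted p under 0.05, beside 26.0% of all genes.

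Rpl17 (chr18:75000477-75003381), a large-subunit protein at the exit of the peptide tunnel, had 191, 209 and 248 CPM in WT kidneys and 102, 129 and 251 CPM in Trpm2-/- kidneys. Here replicate 4 was the Trpm2-/- mouse that stood apart. The log2 fold change was -0.43 (interval -1.08 to 0.22). It was -0.90 without replicate 4 (adjusted p = 0.0135 in edgeR's test), where 6.34% of all genes were called lower. Here too the mouse left out was the highest of its genotype. Rows of pseudogenes that share windows with Rpl17 held 36786 counts against 17980 on the gene itself, and its largest such row was Rpl17-ps10. When these rows were added, the values were 510, 609 and 609 CPM in WT kidneys and 514, 649 and 572 CPM in Trpm2-/- kidneys, a log2 fold change of 0.00.

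Rpl21, a large-subunit protein, had 95.8, 167 and 259 CPM in WT kidneys and 84.8, 199 and 110 CPM in Trpm2-/- kidneys, a log2 fold change of -0.41 (interval -1.25 to 0.43). It was -0.84 without Trpm2-/- replicate 2 (adjusted p = 0.154 in edgeR's test) and -0.01 without WT replicate 3. Rows of pseudogenes that share windows with Rpl21 held 13580 counts against 14450 on the gene itself. With these rows added the log2 fold change was -0.24. Rps27a, which encodes ubiquitin fused to a small-subunit protein, had 199, 569 and 534 CPM and 349, 452 and 352 CPM, with WT replicate 1 far below the other WT mice. Both genes varied more between WT mice than between genotypes. At the upper end of the order, Rpl13a, Rpl12 and Rpsa had log2 fold changes of 0.16, 0.13 and 0.10, and all 3 intervals included 0. Rpl12 (-0.03) and Rpsa (-0.03) were below 0 without Trpm2-/- replicate 2. Rpsa also serves as a laminin receptor at the cell surface.

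Some members have a role in signaling beyond the ribosome. Rps6, the substrate of S6 kinase, had 613, 720 and 680 CPM in WT kidneys and 604, 716 and 692 CPM in Trpm2-/- kidneys. The genotypes overlapped throughout, and the log2 fold change of -0.00 had an interval from -0.33 to 0.33. This is the level of the message, since phosphorylation of S6 was not measured. Rpl5 had 694, 872 and 817 CPM against 663, 814 and 625 CPM, a log2 fold change of -0.18 (interval -0.55 to 0.19). Rpl11 had 511, 660 and 651 CPM against 434, 670 and 363 CPM, with a log2 fold change of -0.31 (interval -0.82 to 0.20). Neither differed beyond the spread between mice. The value of Rpl11 was -0.61 without Trpm2-/- replicate 2 (adjusted p = 0.0619 in edgeR's test) and -0.13 without replicate 4.

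In the P stalk, Rplp0 had 1560, 1940 and 1730 CPM in WT kidneys and 1670, 2000 and 1590 CPM in Trpm2-/- kidneys, which overlapped in full, and its log2 fold change was 0.01. Rplp1 had 1020, 1370 and 1310 CPM against 855, 1390 and 783 CPM, and Rplp2 had 363, 482 and 459 CPM against 307, 456 and 367 CPM. Both were lowest in WT replicate 1 among WT mice and highest in Trpm2-/- replicate 2 among Trpm2-/- mice. Their log2 fold changes were -0.29 and -0.20, and both intervals included 0. Without Trpm2-/- replicate 2 they were -0.59 (adjusted p = 0.0761 in edgeR's test) and -0.37. With each of the other mice left out, Rplp1 lay between -0.42 and -0.13 and Rplp2 between -0.33 and -0.08.

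Paralogues replace or resemble a core protein in some tissues. Rpl10l and Rpl39l, known from the testis, had 0 counts in all 6 libraries and were not tested, which allows at most 0.213 CPM in any library by counting error alone. Per kilobase of transcript, their core partners Rpl10 and Rpl39 had 903 and 485 CPM per kb as means of the 6 kidneys. Rpl3l, known from striated muscle, had 2.77 CPM per kb beside 376 for Rpl3, and Rpl36al had 0.863 beside 521 for Rpl36a. Rpl22l1 had 43.8 beside 139 for Rpl22, and Rpl7l1 had 42.1 beside 667 for Rpl7. All 4 of these means were below those of the partners, and that of Rpl36al is uncertain for the overlap given above.

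Between genotypes, Rpl3l had 4.30 ± 1.31 CPM in WT and 3.33 ± 0.850 CPM in Trpm2-/- kidneys (SD, n = 3), which overlapped, and Rpl36al had 1.24 ± 0.732 and 0.966 ± 0.305 CPM, which also overlapped. Rpl22l1 had 24.9, 29.3 and 26.1 CPM in WT kidneys and 22.2, 24.6 and 17.9 CPM in Trpm2-/- kidneys, with a narrow gap between genotypes and a log2 fold change of -0.31 (adjusted p = 0.242 by edgeR). Their partners Rpl3, Rpl36a and Rpl22 had log2 fold changes of -0.28, -0.15 and -0.19, and those of Rpl7, Rpl10 and Rpl39 were -0.28, -0.13 and -0.37. All 6 intervals reached or included 0. Rps4x, the X-linked core gene whose partner Rps4l was not among the members, had -0.16.

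Rps27l, a p53 target that encodes a near copy of RPS27, differed from the other paralogues in level. With 983 CPM per kb it stood at rank 11 of the 85 genes, beside 780 for Rps27 and 250 for Rps27rt. Counts of Rps27 and Rps27rt are uncertain for their shared windows, so the order of Rps27l and Rps27 is not settled. Rps27l had 433, 608 and 575 CPM in WT kidneys and 385, 515 and 426 CPM in Trpm2-/- kidneys. The genotypes overlapped, and the log2 fold change was -0.29 (interval -0.68 to 0.11). Among 14 regulators and targets of p53 in the list used here, 3 passed the test, beside 12.0% of all genes. All 3 were higher in Trpm2-/- kidneys, namely Mdm4 (log2 fold change 0.63), Eda2r (0.97) and Mdm2 (0.57, adjusted p = 0.0335 in edgeR's test).

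The second question was how the ribosomal protein genes varied from mouse to mouse. They moved together. WT replicate 1 was below the mean of the other WT mice for 83 of 83 members, with a median difference of -0.31 on the log2 scale. Trpm2-/- replicate 2 was above the other Trpm2-/- mice for 80 of 83, with a median difference of 0.46. Over all genes tested, the corresponding medians were -0.02 and -0.01. WT replicate 1 was the lowest of the WT mice for 80 members (38.9% of all genes) and Trpm2-/- replicate 2 the highest of its genotype for 74 (32.3% of all genes). For 39 members the latter was also the highest of all 6 mice.

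**Figure D4:**
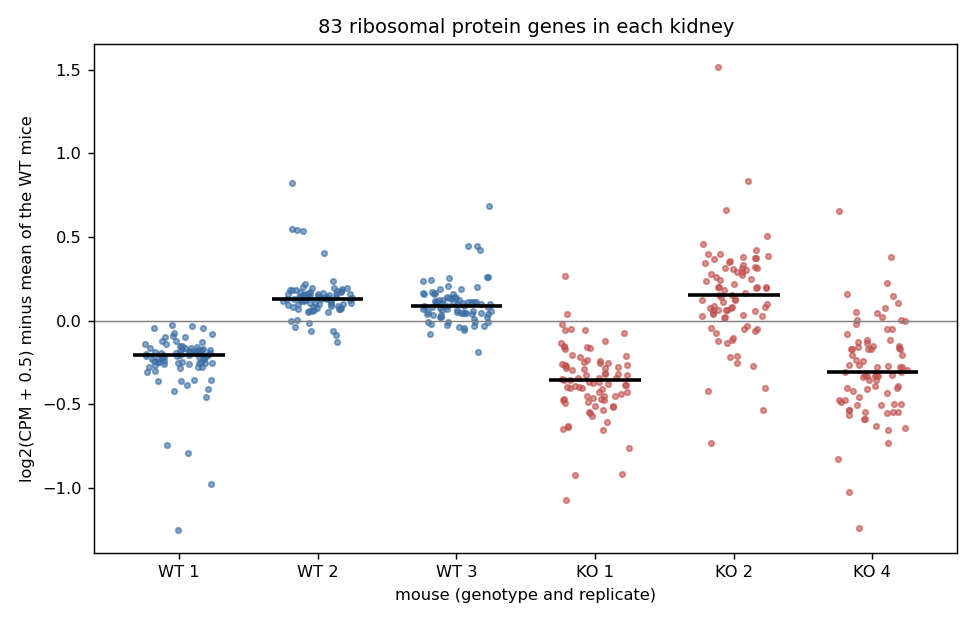
Difference of log2(CPM + 0.5) from the mean of the 3 WT mice (y axis) for the 83 tested genes (points) in each mouse (x axis), with the median as a bar. The medians were -0.21, 0.13 and 0.09 in WT mice and -0.35, 0.15 and -0.30 in Trpm2-/- mice, so Trpm2-/- replicate 2 lay with WT replicates 2 and 3.

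Within Trpm2-/- kidneys the coefficient of variation of a member was 0.215 at the median, against 0.190 for all genes, and within WT kidneys it was 0.128 against 0.127. Spread was largest for Rps27rt, Rps29, Rpl36al, Rps28 and Rpl38, with a coefficient of variation in the more variable genotype of 0.524 to 0.709. Shorter transcripts deviated somewhat more in some mice but not in all. In Trpm2-/- replicate 2, the 42 members with a main transcript of up to 886 bases were 0.55 above the other Trpm2-/- mice at the median and the 41 longer ones 0.41. In WT replicate 1 the shorter ones were at -0.37 and the longer ones at -0.28. The values were -0.32 and -0.21 in Trpm2-/- replicate 1 and 0.17 and 0.10 in WT replicate 3. They were near each other in WT replicate 2 (0.19 and 0.20) and Trpm2-/- replicate 4 (-0.20 and -0.19). Across all genes, log2 CPM in Trpm2-/- replicate 2 relative to its genotype fell by 0.08 per doubling of gene length, and in WT replicate 1 it was higher by 0.06. Whether gene length has a part in the shared movement was not tested beyond the length correction given above.

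Other gene groups moved in the same libraries. In WT replicate 1, 78 of 78 nuclear-encoded respiratory chain genes and 72 of 77 mitochondrial ribosomal protein genes were below the other WT mice, with medians of -0.40 and -0.23. In Trpm2-/- replicate 2, 64 of 78 and 67 of 77 were above the other Trpm2-/- mice, with medians of 0.24 and 0.29. The proteasome showed medians of -0.19 and 0.11. Between genotypes the groups stood at different values. The median log2 fold change was -0.80 for the respiratory chain with 58 of 78 genes lower at an adjusted p under 0.05 in edgeR's test, -0.38 for mitochondrial ribosomal proteins with 14 of 77 lower, and -0.29 for the proteasome with 2 of 38 lower. For the cytosolic ribosomal proteins, as given above, it was -0.16 with 0 of 83. Of all genes tested, 7.28% were called lower. Since all groups were measured in the same kidneys, the difference between them was not tested.

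**Figure D5:**
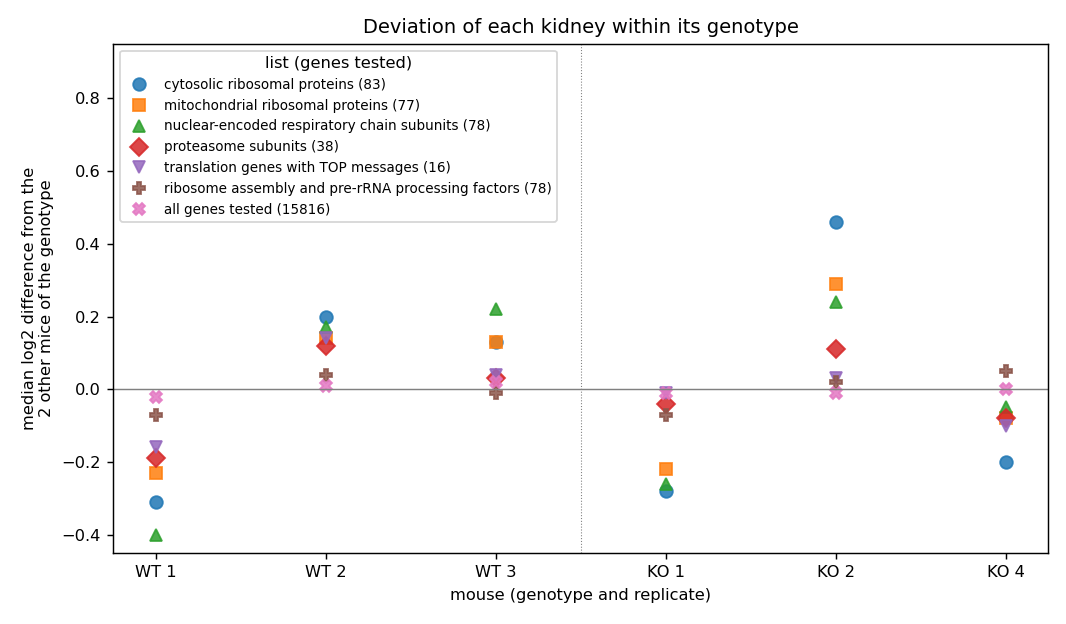
Median log2 difference of each mouse (x axis) from the 2 other mice of its genotype (y axis) for 6 gene lists and for all genes tested; the number of genes tested is in the key. Cytosolic ribosomal proteins had the lowest median but one in WT replicate 1 (-0.31) and the highest in Trpm2-/- replicate 2 (0.46), while all genes stayed between -0.02 and 0.02.

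The rest of the translation machinery was read from lists. Of the ribosomal proteins whose names the rule leaves out, Fau, which encodes a ubiquitin-like protein fused to a small-subunit protein, had 474, 612 and 596 CPM in WT kidneys and 312, 571 and 341 CPM in Trpm2-/- kidneys. As in most members, WT replicate 1 was the lowest WT mouse and Trpm2-/- replicate 2 the highest of its genotype. Rack1 had 760, 865 and 812 CPM against 738, 800 and 657 CPM. Neither gene passed edgeR's test, either after adjustment or at an unadjusted p under 0.05.

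Of 16 further translation genes whose messages carry the TOP motif, 1 was higher and 0 lower at an adjusted p under 0.05. Over all genes, 4.74% were higher and 7.28% lower. Pabpc1, which encodes the poly(A)-binding protein, had 452 ± 37.5 CPM in WT and 789 ± 67.2 CPM in Trpm2-/- kidneys. It rose by 0.80 on the log2 scale (adjusted p = 0.00867 by edgeR, standard error 0.146), and the values of the genotypes did not overlap. Eef1d and Eif3e had -0.31 and -0.24 and did not pass. In WT replicate 1 the median of this list was -0.16 from the other WT mice, with 14 of 16 genes below them, against -0.31 for the ribosomal proteins. In Trpm2-/- replicate 2 it was 0.03 from the other Trpm2-/- mice, against 0.46 for the ribosomal proteins.

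Of 35 initiation factors 0 passed the test in edgeR, beside 12.0% of all genes. An unadjusted p under 0.05 was reached by 5, beside 28.3% of all genes. The smallest adjusted p in edgeR's test was 0.0914, for Eif3i at a log2 fold change of -0.40. Eif3m had -0.36 and Eif2b5 -0.34. Among 78 tested factors of ribosome assembly and pre-rRNA processing, Mdn1, a large ATPase that frees assembly factors from the precursor of the large subunit, rose by 0.82 on the log2 scale (adjusted p = 0.0193 by edgeR). Nop10, a small protein of the H/ACA particles that modify rRNA, had -0.64 (adjusted p = 0.0340 by edgeR). Mdn1 was the 1 factor called higher and Nop10 the 1 called lower, beside 4.74% and 7.28% of all genes. Imp3, of the small-subunit processome, had -0.60 and did not pass. The median of these factors was 0.07, with 50 above 0 and 28 below.

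In the list of RNA polymerase I and rRNA transcription, 1 of 16 genes was higher and 0 lower, beside 4.74% and 7.28% of all genes. Myc, which drives ribosome production in growing cells, rose from 47.3 ± 1.72 to 74.3 ± 5.86 CPM (log2 fold change 0.65, adjusted p = 0.00981 by edgeR). Polr1c, a subunit shared by RNA polymerases I and III, had -0.44 and Taf1d had 0.43, and neither passed. Of 16 genes of S6 kinases, LARP1 and cap-binding regulators, 0 passed edgeR's test, beside 12.0% of all genes. An unadjusted p under 0.05 was reached by 4, beside 28.3% of all genes. The smallest adjusted p in edgeR's test was 0.0647, for Mknk2 at -0.47. Rps6ka3 had 0.55 and Rps6kb2 had -0.41. Rps6kb1, the main S6 kinase, had 36.8 ± 2.07 and 40.4 ± 3.95 CPM (SD, n = 3), Larp1 had 119 ± 8.78 and 124 ± 19.1 CPM, and neither differed beyond the spread between mice. Rps6kb1 and Larp1 were named outside the rule for their role.

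RNAs that stay in the nucleus were also read, as a sign of RNA composition. Malat1 had 1080 ± 138 CPM in WT and 2490 ± 178 CPM in Trpm2-/- kidneys, higher by 1.20 on the log2 scale (adjusted p = 0.00338 by edgeR). Of the 6 tested RNAs 2 passed, Malat1 and Kcnq1ot1 (1.19), beside 12.0% of all genes. The list's summed level was 2480 to 3110 CPM in WT kidneys and 3340, 4670 and 4240 CPM in Trpm2-/- replicates 1, 2 and 4. Like the ribosomal proteins it was highest in Trpm2-/- replicate 2 among mice of that genotype, but among WT mice it was lowest in replicate 2 and not in replicate 1. Its part in the ribosomal protein values was not tested.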

How the data were processed

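The authors deposited whole-number read counts per gene, without normalization, and FPKM values that scale with these counts per gene length, with a divisor 1.06 to 1.19 times the total count of the library. The submitters' processing notes name HISAT2, StringTie and mm9, but gene positions equal GRCm38. Strandedness and the counting tool are not given in the sources used here.

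Counts were fitted in R 4.3.3 with edgeR 4.0.16 (filterByExpr with a minimum count of 10, TMM, two-sided quasi-likelihood test on genotype, Benjamini-Hochberg over all genes tested, common dispersion 0.0445). Each standard error was derived from the fold change and the F statistic of its test. Within a genotype, libraries differed beyond sampling noise (chi-square per degree of freedom 13.5 to 36.7). Alternatives were DESeq2 1.42.0, limma 3.58.1 (voom, and log2(FPKM + 1) or log2(FPKM + 0.1) at a mean of at least 1 FPKM), other scalings and filters, a gene-length correction (loess, span 0.5), the replicate number as a block, each mouse left out, and, chosen after seeing the data, members summed with their pseudogene rows. Scripts were tested on simulated counts.

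The members, lists and tests were chosen with earlier results of these data known. Genes named are the 5 highest and 5 lowest log2 fold changes, members past the test, the 3 highest FPKM, paralogues with their partners, Rpl5, Rpl11, Rps6, Rplp0, Rplp1, Rplp2, Rpsa and Rps27a, and up to 3 genes of each pathway list by smallest p. Rpl24, Rpl35a, Rpl38, Rpl41, Rps3a1, Rps10, Rps15 and Rps28 were named after their values were seen. Some genes that the rule names are not reported here. Main transcripts are the longest APPRIS principal coding transcripts of GENCODE release 21. Floors of 3 counts cover counting error only.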

Additional observations from a re-analysis of the deposited data

How the results depend on the processing

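No member was called in the fit as reported, and the count of calls moved under a few alternatives. DESeq2 called 2 members lower, no filter on low counts 1 higher (Rps27rt, adjusted p = 0.0356 by edgeR, beside 4.37% of all genes), and leaving out each mouse in turn 0 to 4 lower, with 0 to 1 past the threshold of the methods. The numbers 1 and 2 occur in both genotypes but belong to different mice, whose deviations correlated at 0.064 and -0.012 over all genes and at 0.415 and 0.224 over the members, the latter being the 2 highest of the 9 pairings of a WT with a Trpm2-/- mouse. With only 2 pairs they were not taken to pair the samples. With the replicate number as a block 1 member was lower (Rpl17, -0.80), the median was -0.06, and 11 members changed sign. Among them were Rpl21 (0.04), Rpl36a (0.00) and Rps27a (0.24). The numbers 3 and 4 each occur in 1 genotype only. WT replicate 3 and Trpm2-/- replicate 4 therefore added nothing to the genotype difference in that fit, which rested on replicates 1 and 2. All genes called fell from 1902 to 1002 with the block, and to 697 and 630 without WT replicates 2 and 3.

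The median of members stayed below 0 under every alternative run, from -0.34 to -0.03. Some single genes changed sign without passing a test. With the length correction 21 of 83 members changed sign, among them, of the genes named by the rule or after their values were seen, Rpl10 (0.02), Rpl36a (0.03), Rps4x (0.03), Rps10 (0.01) and Rps6 (0.19). With each mouse left out, values ranged from -0.03 to 0.26 for Rpl12, -0.10 to 0.09 for Rplp0, -0.16 to 0.92 for Rps27rt, -0.03 to 0.25 for Rpsa, -0.76 to 0.07 for Rpl36al, -0.53 to 0.06 for Rps27a and -0.07 to 0.07 for Rps6. Rpl17 was at 0.00 with its pseudogene rows and Rplp0 at -0.00 with no filter. Rps6 was at 0.01 with the filter of 1 CPM, without the mitochondrial genome and with both limma settings on FPKM, at 0.00 with DESeq2 and with its size factors, at 0.04 with upper-quartile scaling and at 0.11 with library totals. The causes were not tested.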
